A study of Homo sapiens with 5 samples.

Results

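The genes described here control the step from G1 to S phase of the cell cycle: the D-type cyclins CCND1, CCND2 and CCND3, the cyclins CCNE1 and CCNA2, the pocket proteins RB1, RBL1 and RBL2, and the CDK inhibitor genes CDKN2A and CDKN2B. Their methylation was read by reduced representation bisulfite sequencing (RRBS), in which a restriction enzyme that cuts at CCGG enriches CpG-rich DNA and bisulfite tells methylated from unmethylated cytosines. The unit is a window of 1000 bases, and a window belonged to a gene when the deposited table named that gene for it or when it overlapped the gene with 1500 bases on either side. This gave 157 windows of the 288391 windows measured in all 5 libraries, and each of the 10 genes had at least 2. The cells were human induced pluripotent stem cells of the established line 201B7 (wild type by the labels), and each library came from cells exposed for 48 h to 0.1% DMSO (the vehicle control), etoposide at 1 nM, 5-aza-dc at 10 nM, or propyl gallate or theophylline, each at 1 µM. For imaging and a methylation array the authors used 201B7 cells carrying a fluorescent methyl-CpG-binding reporter (mCherry-MBD-nls). Their RRBS methods do not say whether those cells were used. Etoposide is a topoisomerase II poison, propyl gallate an antioxidant, theophylline a phosphodiesterase inhibitor and adenosine receptor antagonist, and 5-aza-dc a nucleoside analog that traps DNA methyltransferases. The question was how these chemicals change DNA methylation. All libraries share 1 cell line, and with 1 library per condition no difference has a replicate check.

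D-type cyclins with their kinases, and then cyclin E with its kinase, phosphorylate RB1 and its relatives, which otherwise hold E2F transcription factors inactive; cyclin A acts later in S phase. The CDKN2A gene has 2 starts that give the unrelated proteins p16INK4a, an inhibitor of the cyclin D kinases, and ARF, which stabilises p53; CDKN2B encodes p15INK4b, a close relative of p16INK4a. In tumours the CDKN2A, CDKN2B and RB1 promoters are known targets of silencing by methylation. RB1 also has a CpG island within an intron, where a processed pseudogene (PPP1R26P1) lies, and in many tissues this island is imprinted, with the maternal copy methylated.

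The stretches of 250 bases before the starts of transcription show how much CpG the measured promoters hold. They are from RefSeq (GRCh38.p14), which had 12 entries for 8 of the 10 genes, are written 5′ to 3′ on the gene's strand, and have each CpG pair in capitals. The first pair are the 2 starts of CDKN2A and the third its neighbour CDKN2B. CCNE1 is shown because it had the most CpG pairs (39), CCND3 because the window just upstream of this stretch was methylated at an intermediate level, and RBL1 because its promoter was unmethylated although the deposited table places it outside CpG islands.

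CDKN2A, p16INK4a start, chr9:21974858-21975107, minus strand: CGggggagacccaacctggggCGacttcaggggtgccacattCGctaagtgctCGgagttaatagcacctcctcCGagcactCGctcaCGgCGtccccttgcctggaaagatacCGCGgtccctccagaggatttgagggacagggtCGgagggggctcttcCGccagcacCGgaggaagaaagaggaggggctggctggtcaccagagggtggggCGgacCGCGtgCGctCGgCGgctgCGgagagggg
CDKN2A, ARF start, chr9:21995325-21995574, minus strand: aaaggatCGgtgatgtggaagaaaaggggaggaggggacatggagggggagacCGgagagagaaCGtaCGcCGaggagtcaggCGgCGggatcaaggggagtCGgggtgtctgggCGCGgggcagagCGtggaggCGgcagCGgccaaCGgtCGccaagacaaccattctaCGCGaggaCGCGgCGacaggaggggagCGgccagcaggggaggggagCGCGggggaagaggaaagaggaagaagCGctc
CDKN2B, chr9:22009306-22009555, minus strand: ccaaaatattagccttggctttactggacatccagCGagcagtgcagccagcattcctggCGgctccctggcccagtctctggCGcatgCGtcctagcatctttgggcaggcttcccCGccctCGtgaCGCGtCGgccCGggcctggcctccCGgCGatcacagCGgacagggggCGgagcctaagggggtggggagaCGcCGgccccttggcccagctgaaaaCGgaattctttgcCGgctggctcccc
CCNE1, chr19:29811741-29811990, plus strand: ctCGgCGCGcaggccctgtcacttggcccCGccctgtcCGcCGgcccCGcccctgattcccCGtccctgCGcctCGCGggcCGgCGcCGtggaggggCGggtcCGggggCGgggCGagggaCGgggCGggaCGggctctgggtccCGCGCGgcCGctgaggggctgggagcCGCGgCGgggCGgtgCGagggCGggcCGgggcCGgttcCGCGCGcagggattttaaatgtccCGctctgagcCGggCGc
CCND3, chr6:42048689-42048938, minus strand: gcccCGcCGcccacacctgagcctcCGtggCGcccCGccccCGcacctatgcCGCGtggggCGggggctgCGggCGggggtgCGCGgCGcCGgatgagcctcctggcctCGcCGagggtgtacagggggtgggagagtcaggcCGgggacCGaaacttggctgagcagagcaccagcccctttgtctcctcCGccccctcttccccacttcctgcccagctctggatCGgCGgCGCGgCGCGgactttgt
RBL1, chr20:37095998-37096247, minus strand: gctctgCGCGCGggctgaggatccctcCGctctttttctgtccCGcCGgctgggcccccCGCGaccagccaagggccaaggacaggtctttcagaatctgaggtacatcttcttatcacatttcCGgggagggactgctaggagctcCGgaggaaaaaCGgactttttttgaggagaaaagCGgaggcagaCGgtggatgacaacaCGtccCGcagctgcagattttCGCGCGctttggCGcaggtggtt

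These 6 stretches hold 18 to 39 CpG pairs, and all 12 entries hold 0 to 39, the lowest being an entry of RB1 for a start far downstream of its main promoter; the median over all 35116 promoters of the table was 11. The letters CCGG, at which the enzyme cuts, occurred in 9 of the 12 entries and in 58.5% of all promoters. Of the 12 entries, 1 held a motif that E2F factors recognise (TTTCGCGC, TTTGGCGC, TTTCCCGC or TTTGCCGC, on either strand): RBL1, with 1 copy of TTTCGCGC and 1 of TTTGGCGC that do not overlap, while 2.79% of all promoters held at least 1.

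The libraries held 188844850 to 228919184 CpG calls, and the 157 windows had a median of 651 calls in the vehicle control; 134 had at least 100 calls in every library and 5 fell under 30 in some library. Over all windows the mean β value (the methylated share of the calls) was 79.4% in the vehicle control and 78.4 to 80.4% after the chemicals. Of the promoter windows of pluripotency genes, those of SALL4 (0.54 to 1.15%) and LIN28A (0 to 7.05%) were low. The 3 promoter windows of POU5F1 spanned 0.69 to 95.4%, those of DNMT3B 0.75 to 95.1% and those of TERT 20.4 to 89.7%, and NANOG had no window, so the label was checked on these genes only in part. β values in percent follow in the order vehicle control, etoposide, propyl gallate, theophylline and 5-aza-dc wherever 5 are given, and intervals are 95% Wilson intervals, which cover counting error only.

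The windows of the G1/S genes were either nearly free of methylation or nearly full. The mean β value over the 5 libraries was under 10% in 38 windows and at least 80% in 109, with 10 windows between 20 and 80% and 0 between 10 and 20%. The promoters made up most of the low class: of 30 windows within 1500 bases before or 500 bases after a start, 25 lay in a CpG island, and these averaged 3.16, 3.23, 3.17, 3.15 and 3.16%. The other 121 windows, leaving the RB1 intron island apart, averaged 82.0% in the vehicle control. The plot of mean β values by gene shows these classes.

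Fisher's exact test set each chemical beside the vehicle control in every window, adjusted over all 288391 windows, and a window was called at an adjusted p under 0.01. Such a call compares 2 libraries, not 2 conditions. After etoposide 7 of the 157 windows were called higher and 5 lower, or 7.64%, against 10.1% of all windows (6.37% higher and 3.74% lower). After propyl gallate 12 were higher and 3 lower, or 9.55%, against 10.3% of all windows (6.55% higher and 3.71% lower). After theophylline 8 were higher and 3 lower, or 7.01%, against 11.0% (8.13% higher and 2.86% lower). After 5-aza-dc 5 were higher and 14 lower, or 12.1%, against 14.0% (3.55% higher and 10.4% lower). None of these 4 shares was above that of all windows, of which 9.61% had a mean β value under 10%, beside 38 of the 157. In the 119 windows of at least 10% the shares were 9.24, 11.8, 8.40 and 13.4% after etoposide, propyl gallate, theophylline and 5-aza-dc. The share among all windows of at least 10% was not computed. It lies above that of all windows, because the windows under 10% had lower shares (5.29, 5.46, 5.47 and 8.94%). The 11.8% after propyl gallate therefore cannot be read against 10.3%. Higher calls outnumbered lower ones after etoposide, propyl gallate and theophylline, and lower ones outnumbered higher ones after 5-aza-dc, both in the 157 windows and in the table as a whole.

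The median difference over the 157 windows was -0.13 percentage points in 5-aza-dc, 0.04 in etoposide, 0.10 in propyl gallate and 0.31 in theophylline, beside -0.64, 0.34, 0.36 and 0.69 over all windows. The calls fell on 43 windows, or 27.4% of the 157, where 31.9% of all windows were called for at least 1 chemical; 31 of the 43 (72.1%) were called for 1 chemical only, as were 68.7% of all called windows. The 4 comparisons share the vehicle control library. Differences of at least 10 points among the calls were few: 3, 4, 2 and 5 windows for etoposide, propyl gallate, theophylline and 5-aza-dc, with 2.32, 2.22, 2.27 and 3.63% of all windows. By gene, the windows called for at least 1 chemical were 11 of 29 at CCND1, 11 of 34 at CCND3, 8 of 17 at RB1, 6 of 29 at RBL1, 3 of 10 at CCNE1, 2 of 10 at CDKN2A, 1 of 14 at CCND2 and 1 of 9 at RBL2. CCNA2 (3 windows) and CDKN2B (2 windows) had 0, with an unadjusted p under 0.05 in 2 of 12 and 1 of 8 comparisons.

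**Figure D1:**
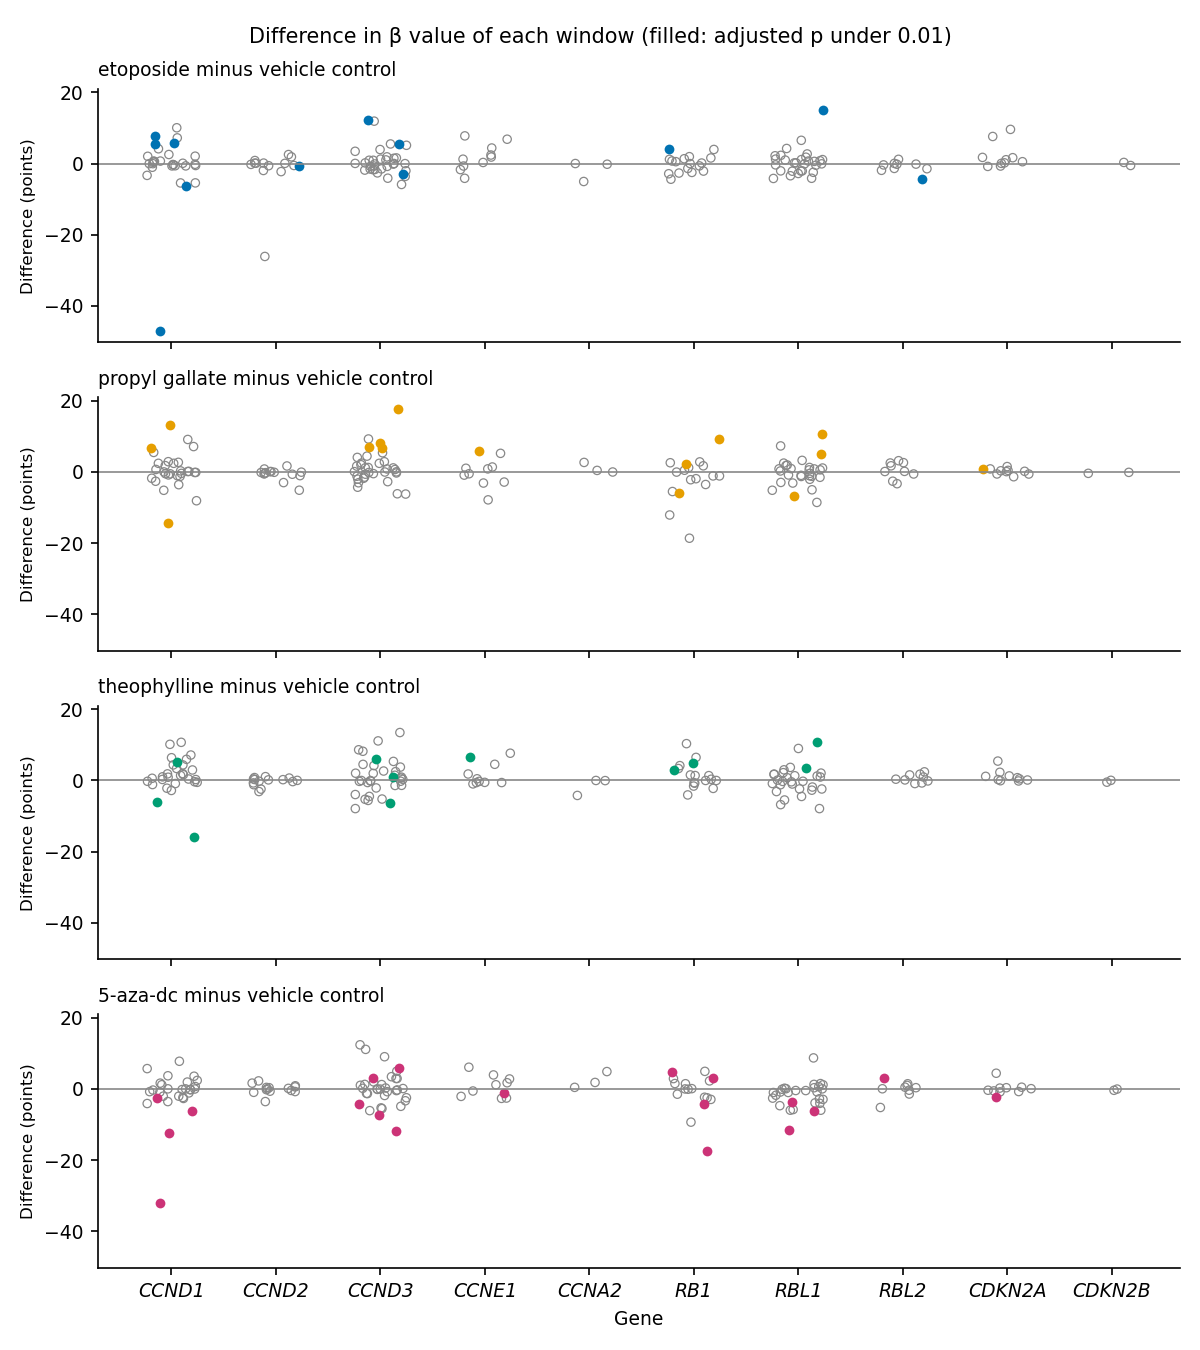
Each panel shows 1 chemical; each point is a window, placed by gene (x axis, spread sideways at random) and by its β value minus that of the vehicle control in percentage points (y axis), filled where the adjusted p was under 0.01. Most points lie near 0, and the CCND1 window at -47.0 points after etoposide and -32.0 after 5-aza-dc stands apart from the rest.

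The mean over all promoters showed no difference beyond counting error, while some single genes, picked by their values, lay higher or lower. Over all 30 promoter windows the mean changed by 0.29 points after etoposide (95% counting interval -0.03 to 0.60) and by -0.15 after propyl gallate (-0.45 to 0.16). It changed by 0.18 after theophylline (-0.12 to 0.48) and by -0.03 after 5-aza-dc (-0.34 to 0.28). Over the 25 promoter CpG-island windows, a set chosen after seeing the data, it changed by 0.07 points after etoposide (-0.13 to 0.27) and by 0.01 after propyl gallate (-0.18 to 0.20). The change was -0.002 after theophylline (-0.19 to 0.19) and 0.0001 after 5-aza-dc (-0.20 to 0.20). Among the CpG-island promoters of single genes, CDKN2A was higher after etoposide (0.60, 0.21 to 1.00) and propyl gallate (0.49, 0.10 to 0.87). RB1 was higher after propyl gallate (0.50, 0.16 to 0.83) and theophylline (0.35, 0.01 to 0.68). CCNE1 was lower after propyl gallate (-0.68, -1.14 to -0.22), theophylline (-0.59, -1.05 to -0.14) and 5-aza-dc (-0.91, -1.36 to -0.47). RBL2 was lower after theophylline (-0.50, -0.96 to -0.04). These genes were picked by their values. Of all 30 promoter windows, 0 were called after etoposide (8 had an unadjusted p under 0.05) and 1 after each other chemical. Among all 38 member windows with a mean β value under 10%, 1, 1, 1 and 3 were called, or 2.63, 2.63, 2.63 and 7.89%, where 5.29, 5.46, 5.47 and 8.94% of all such windows were.

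CCND1, cyclin D1, lies on chr11:69641156-69654474. The CpG-island windows around its start were unmethylated in all libraries. The window with the start (chr11:69641001-69642000) read 0.81, 0.78, 0.68, 0.58 and 0.62%, and the 2 before it (starting at 69639001 and 69640001) lay between 0.65 and 1.34%. A further island upstream (chr11:69636300-69639600) was also low, and its outermost window (chr11:69636001-69637000) fell from 4.09 to 1.49% after 5-aza-dc (exact adjusted p = 0.00097), with 3.46, 2.34 and 4.70% after the other chemicals.

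The window at the downstream edge of the promoter island (chr11:69643001-69644000), which the table places at an intron-exon boundary, was the most variable of all 157 windows with at least 100 calls in every library. It read 73.1% in the vehicle control (69.4 to 76.5, 594 calls), 26.0% after etoposide (21.2 to 31.8, 264 calls), 65.0% after propyl gallate (60.5 to 69.2, 457 calls), 57.2% after theophylline (52.2 to 62.0, 383 calls) and 41.1% after 5-aza-dc (37.0 to 45.4, 520 calls). All 4 chemicals thus lay below the control library, and none of their intervals overlapped that of the control. The intervals of etoposide, theophylline and 5-aza-dc did not overlap each other, while those of propyl gallate and theophylline did. The window reaches past the island's end at 69643800. Calls are summed over each window, so whether the same CpGs were read in each library was not tested. The exact adjusted p was 6.18e-34 for etoposide, 5.12e-24 for 5-aza-dc and 1.83e-05 for theophylline, while propyl gallate missed the threshold (0.0346). The window just before it (starting at 69642001) stayed between 0.94 and 1.35%, and the next measured windows of the gene, from 69646001, lay between 84.2 and 94.2%.

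**Figure D2:**
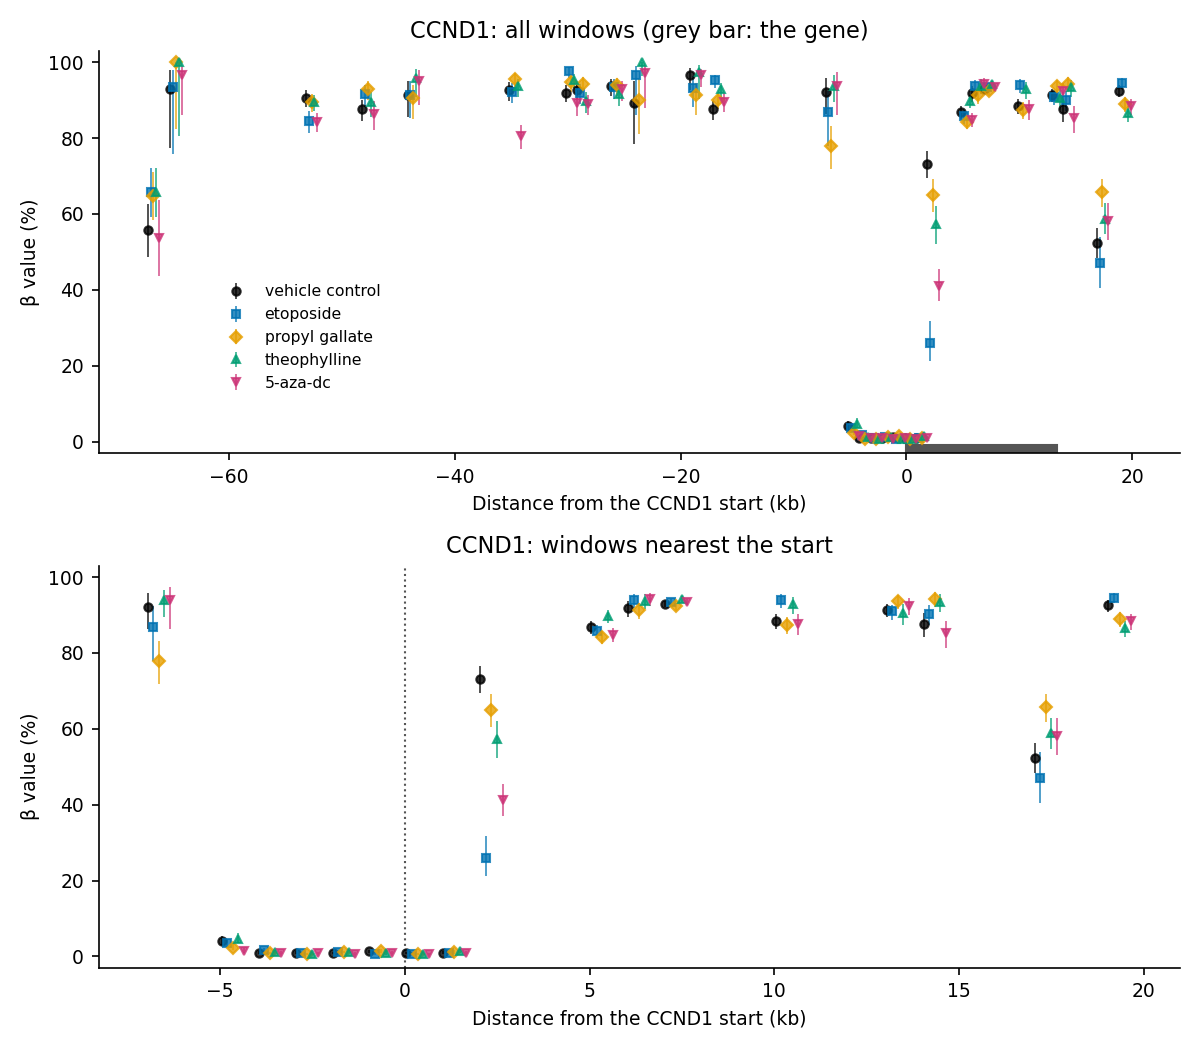
β value in percent (y axis) of each CCND1 window against the distance of its centre from the CCND1 start in kb (x axis), for the 5 libraries, which are set slightly side by side; bars are 95% Wilson intervals, the dotted line is the start and the lower panel enlarges the surroundings of the start. Windows near the start lie at about 1%, and the window at the edge of the island spreads from 26.0 to 73.1%.

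Apart from these 2 islands, the called differences at CCND1 were of 5 to 15 points, and no other window was called for 3 chemicals. Upstream, 1 window (starting at 69588001) fell from 90.6 to 84.4% after etoposide (exact adjusted p = 0.00791) and to 84.3% after 5-aza-dc (0.0038). The window at 69606001 was 92.8% in the vehicle control and 92.2, 95.7 and 93.7% after etoposide, propyl gallate and theophylline, but 80.4% after 5-aza-dc (exact adjusted p = 8.36e-07). After etoposide the window at 69611001 rose from 91.9 to 97.7% (exact adjusted p = 0.000679), that at 69624001 from 87.6 to 95.2% (5.81e-05) and that at 69651001, in the gene, from 88.5 to 94.0% (0.00239). The window at 69624001 also rose after theophylline, to 92.8% (exact adjusted p = 0.00833). After propyl gallate the shore window at 69634001 fell from 92.2 to 77.9% (exact adjusted p = 0.00777), and 2 windows past the gene's end rose, from 87.6 to 94.3% (at 69655001, 0.0031) and from 52.4 to 65.7% (at 69658001, 0.000112). The window at 69660001 fell from 92.5 to 86.6% after theophylline (exact adjusted p = 0.00034). Both directions thus occurred after etoposide, propyl gallate and theophylline, while the 4 windows called after 5-aza-dc, those of the islands included, were all lower.

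CCND2, cyclin D2 (chr12:4273762-4305353 in RefSeq; the deposited table starts it at 4269771), had 6 promoter windows in CpG islands, and they ranged from 0 to 2.63%. The window with the RefSeq start (chr12:4273001-4274000) read 0.36, 0.44, 0.28, 1.44 and 0.79%. The only call at CCND2 was in a window of the same CpG island that lies outside the promoter class (chr12:4271001-4272000). It fell from 0.85% of 4101 calls to 0.22% of 3459 calls after etoposide (exact adjusted p = 0.00401), a change of 0.63 points. Its antisense gene CCND2-AS1 overlaps these windows (chr12:4248767-4276184), so they belong to both. The windows of the gene outside CpG islands lay between 86.3 and 97.7%, except for the window at 4289001 after etoposide, which read 68.2% on 19 calls and was not called.

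CCND3, cyclin D3 (chr6:41934933-42050035 in RefSeq, minus strand), has several starts, and its promoter windows held the only CpG-island promoter window of the set at an intermediate level. That window (chr6:42049001-42050000) read 52.1% in the vehicle control (49.9 to 54.2, 2021 calls), 53.0% after etoposide (50.6 to 55.3), 52.7% after propyl gallate (50.4 to 55.1), 51.5% after theophylline (49.3 to 53.6) and 52.2% after 5-aza-dc (50.1 to 54.4). The DNA is bulk and calls are summed over each window. Such a level cannot tell apart a mixture of alleles, of cells or of differently methylated CpGs. All 5 intervals overlapped and the smallest exact adjusted p was 0.783. The windows on either side were low: that with the stretch printed above (chr6:42048001-42049000) read 2.54, 1.74, 1.92, 2.35 and 2.65%, and that with the outermost start (chr6:42050001-42051000) read 1.11, 1.12, 0.97, 2.22 and 0.83%, with a call after theophylline (exact adjusted p = 0.00938). At the internal start near chr6:41941808 the island window (starting at 41941001) stayed between 0.42 and 0.89%, and the shore window next to it (starting at 41942001) lay at 42.3, 38.7, 38.0, 40.9 and 36.8%, with no call.

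In the body of CCND3, 10 windows were called, all at 82.3 to 97.1% in the vehicle control. After propyl gallate all 4 called windows were higher: from 82.3 to 100% (starting at 42018001, 80 calls, exact adjusted p = 0.000363), from 91.3 to 98.4% (42002001, 0.00751), from 85.3 to 93.6% (42030001, 0.00473) and from 91.1 to 97.8% (42033001, 2.84e-05). The windows at 42030001 and 42033001 were also higher after etoposide, at 97.5% (exact adjusted p = 0.000148) and 96.6% (0.00163). The other 2 read 82.5% (42018001) and 95.2% (42002001) after etoposide. After theophylline and 5-aza-dc the 4 windows read 95.8 and 94.7% (42018001), 95.04 and 94.2% (42002001), 87.4 and 88.8% (42030001) and 95.6 and 92.4% (42033001). The vehicle control was thus the lowest of the 5 libraries in all 4 windows, and these differences rest on that 1 library. After 5-aza-dc the window at 41982001 fell from 96.6 to 84.8% (exact adjusted p = 0.000918) and that at 41990001 from 93.5 to 86.1% (1.14e-05). In an island of the gene body, the window at 42027001 fell from 91.4 to 85.04% after theophylline (exact adjusted p = 0.000388), while the window beside it at 42028001 rose from 88.8 to 94.8% (0.0092) and after 5-aza-dc to 94.5% (0.0053). The smaller calls were a fall at 41969001 from 97.1 to 94.2% after etoposide and to 92.9% after 5-aza-dc, and a rise at 42014001 from 91.9 to 94.9% after 5-aza-dc.

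CCNE1, cyclin E1 (chr19:29811991-29824312), had the only promoter window that was called after 5-aza-dc. This window, which holds the start and the stretch printed above (chr19:29811001-29812000), read 3.40, 3.69, 2.91, 2.81 and 2.15% on 3793 to 5948 calls, and the fall of 1.24 points after 5-aza-dc had an exact adjusted p of 0.00145. The next window (starting at 29812001) read 1.45, 0.75, 0.57, 0.85 and 0.87%. Past the gene's end 2 windows rose: that at 29826001 from 89.2 to 95.2% after propyl gallate (exact adjusted p = 0.00413) and that at 29827001 from 91.8 to 98.4% after theophylline (1.18e-08). CCNA2, cyclin A2 (chr4:121816444-121823883), had 3 windows, and its promoter window (chr4:121823001-121824000) read 0.82, 0.63, 1.27, 0.79 and 1.26%.

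RB1, the retinoblastoma protein that binds E2F factors, starts at chr13:48303751. Its promoter window (chr13:48303001-48304000) was unmethylated: the vehicle control had 28 methylated calls of 5438 (0.51%, interval 0.36 to 0.74), 26 of 4037 after etoposide (0.65%), 53 of 5276 after propyl gallate (1.01%, 0.77 to 1.31), 30 of 4963 after 5-aza-dc (0.60%) and 37 of 4325 after theophylline (0.86%). The largest of these differences, 0.50 points after propyl gallate, had an exact adjusted p of 0.0253 and was not called.

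The intron island of RB1 was the opposite. It comprises 3 CpG islands between chr13:48316300 and chr13:48321400, overlapping PPP1R26P1 (chr13:48316689-48320555), and its 5 windows averaged 92.9, 92.7, 95.1, 94.6 and 93.1%. No window of this island lay between 20 and 80% in any library; the lowest single value was 86.0% and the highest 100%. By the deposited table, RB1 runs on to 48599436, whereas RefSeq ends it at 48481890. A further CpG-island window inside the longer span (chr13:48532001-48533000) lies past the RefSeq end and within RCBTB2 (chr13:48488963-48535895), and it read 0, 1.34, 2.60, 0 and 0% on 71 to 132 calls, where 0 of 110 calls in the vehicle control allows up to 2.73% if 3 calls are taken as the limit of a count of 0, with a Wilson upper bound of 3.37%. With this window counted, as the rule has it, the 6 windows averaged 77.4, 77.4, 79.6, 78.8 and 77.6%.

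Over those 6 windows the mean differed from the vehicle control by 0.04 points after etoposide (95% counting interval -1.51 to 1.58), by 2.24 after propyl gallate (0.84 to 3.64), by 1.40 after theophylline (0.11 to 2.69) and by 0.20 after 5-aza-dc (-1.26 to 1.65). Over the 5 windows within RefSeq RB1 the differences were -0.22, 2.16, 1.68 and 0.24 points. Each window counts equally in these means. The fourth window of the island (48320001), on 95 to 185 calls, differed most after propyl gallate (9.29 points) and theophylline (6.48). With all calls of the 6 windows pooled the differences were -0.30, 1.24, 1.14 and 0.05 points. The median differences over the 6 windows were 0.25, 1.72, 0.69 and -0.04 points. The windows did not move together. The first (starting at 48317001) read 90.3, 89.6, 88.4, 89.5 and 86.0%, called lower after 5-aza-dc (exact adjusted p = 0.00129). The second (48318001) read 91.9, 93.1, 93.2, 94.8 and 95.1%, called higher after theophylline (0.00197) and 5-aza-dc (0.000547).

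The third (48319001) read 95.3, 95.3, 97.5, 96.7 and 95.2%, called higher after propyl gallate (exact adjusted p = 0.000237). The fourth (48320001), on 95 to 185 calls, read 90.7, 88.6, 100, 97.2 and 95.7%, also called after propyl gallate (0.00808). The fifth (48321001) read 96.2, 96.7, 96.2, 94.6 and 93.7%, with no call. After 5-aza-dc adjacent windows of this island were thus called in opposite directions.

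**Figure D3:**
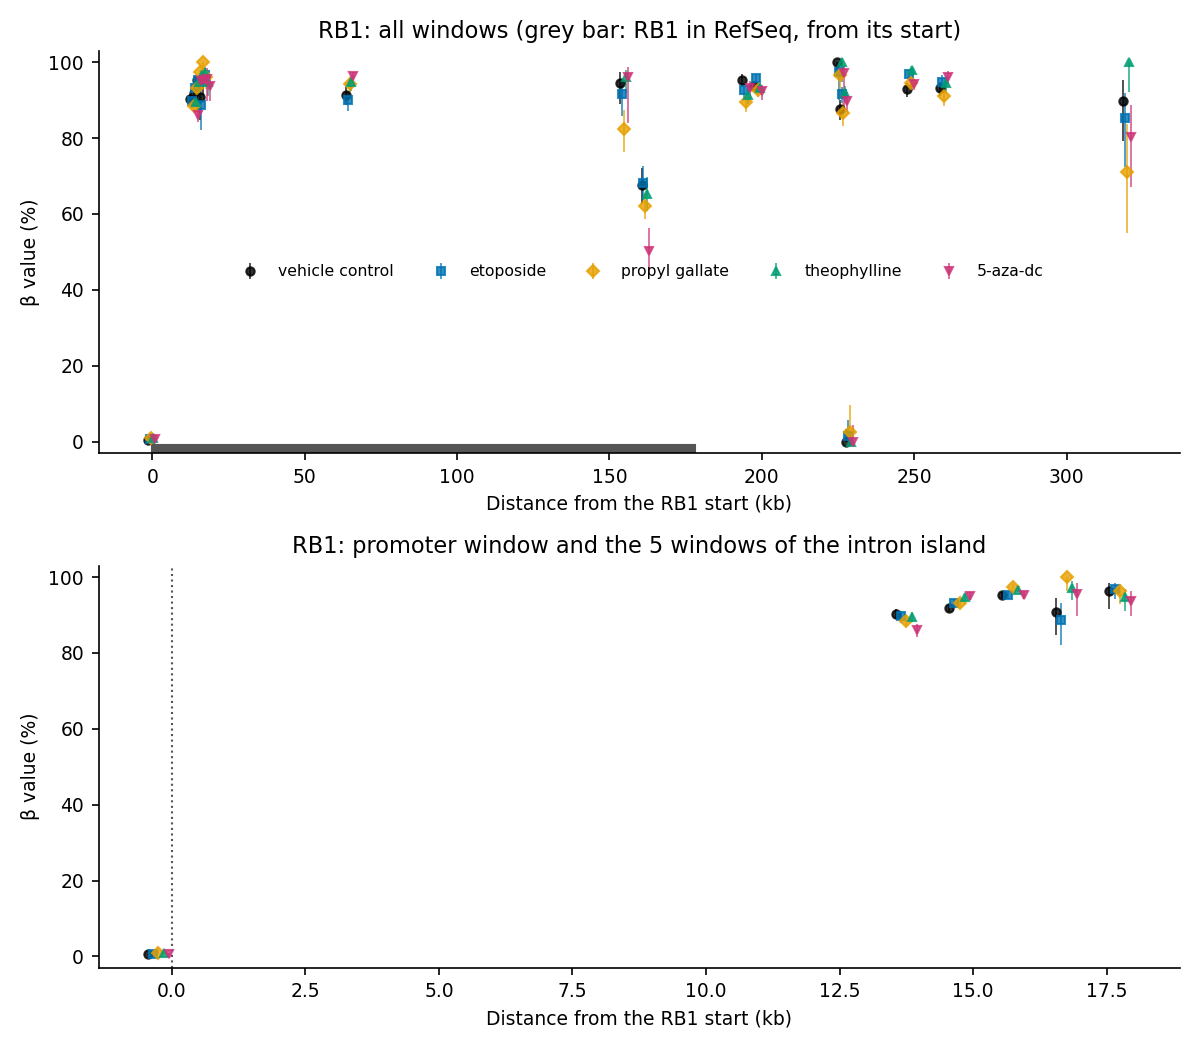
β value in percent (y axis) of each RB1 window against the distance of its centre from the RB1 start in kb (x axis), for the 5 libraries, which are set slightly side by side; bars are 95% Wilson intervals. The lower panel enlarges the promoter window, at 1.01% or less, and the 5 windows of the intron island, at 86.0% or more.

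In the rest of RB1 the called window with the largest difference (chr13:48465001-48466000), within the RefSeq span and outside CpG islands, shores and shelves, read 67.6, 68.3, 62.1, 65.3 and 50.2% and was called lower after 5-aza-dc (exact adjusted p = 0.000309). Its interval after 5-aza-dc (44.0 to 56.4) overlapped none of the others. The window at 48368001 rose from 91.4 to 96.3% after 5-aza-dc (exact adjusted p = 0.00557). Past the RefSeq end of the gene, the window at 48498001, in RCBTB2, fell from 95.4 to 89.4% after propyl gallate (exact adjusted p = 0.000911), and that at 48552001 rose from 92.9 to 96.9% after etoposide and 97.9% after theophylline.

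RBL1, p107, and RBL2, p130, are the RB1 relatives that bind the repressor E2F factors. The 2 promoter windows of RBL1, at the end of chr20:36996349-37095997 (minus strand), were annotated outside CpG islands and yet ranged from 0.29 to 1.26%. The window with the start (chr20:37095001-37096000) read 0.89, 0.81, 0.52, 0.63 and 0.91%. In its body the window at 37037001 was lowest in the vehicle control, at 84.2% (78.3 to 88.8, 184 calls), and read 99.3, 95.03, 94.9 and 93.0% after the chemicals. It was called higher after etoposide (exact adjusted p = 1.39e-07), propyl gallate (0.0086) and theophylline (0.00314), and missed the threshold after 5-aza-dc (0.011). All 4 of these differences rest on the 1 vehicle control library.

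After 5-aza-dc 3 RBL1 windows were called lower, from 96.2 to 84.7% (37030001, exact adjusted p = 3.68e-07), from 98.8 to 92.5% (36980001, 2.84e-05) and from 93.4 to 89.7% (37043001). The window at 36980001, past the gene's end, was also lower after propyl gallate, at 92.2% (exact adjusted p = 2.11e-05). The window at 37021001 rose from 90.7 to 95.6% after propyl gallate and that at 36999001 from 94.97 to 98.4% after theophylline. At RBL2 (chr16:53434471-53491648) both promoter windows, starting at 53434001 and 53435001, ranged from 0.46 to 1.77%. Its only called window (53448001) read 94.4, 90.2, 96.1, 96.2 and 97.4%, lower after etoposide (exact adjusted p = 0.00178) and higher after 5-aza-dc (0.00612).

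At CDKN2A (chr9:21967752-21995324, minus strand) and CDKN2B (chr9:22002903-22009313) the starts were unmethylated in all 5 libraries. Around the p16INK4a start, the window chr9:21974001-21975000 read 2.68, 3.74, 3.55, 2.92 and 2.75% on 3536 to 5001 calls and the window chr9:21975001-21976000 read 0.93, 0.12, 1.04, 0.79 and 0.11%. At the ARF start, the window chr9:21995001-21996000 read 1.04, 2.68, 1.23, 1.49 and 1.27%. The window beside it (21994001), which also holds the start of the antisense gene CDKN2B-AS1, read 0.32, 0.84, 1.102, 0.45 and 0.66% and was called higher after propyl gallate (exact adjusted p = 0.0057), by 0.78 points. The 2 promoter windows of CDKN2B, starting at 22008001 and 22009001, stayed between 0.48 and 1.48%, with no call.

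Upstream of the p16INK4a island 2 shore windows were methylated at higher levels. The window chr9:21976001-21977000 read 25.7, 33.3, 26.0, 31.1 and 30.1%, and the next one (21977001) read 47.0% (43.2 to 50.8), 56.6% after etoposide (51.1 to 62.0), 45.7, 47.8 and 46.3%. Both were highest after etoposide, but with exact adjusted p of 0.0458 and 0.0357 they were not called. Nearer the ARF start, the CpG-island window at 21993001 was low again, at 0.73, 0.78, 2.25, 2.01 and 0.37%. Further into the gene, the CpG-island window chr9:21971001-21972000 fell from 3.76 to 1.53% after 5-aza-dc (exact adjusted p = 0.000136), with 3.06, 3.21 and 3.69% after etoposide, propyl gallate and theophylline.

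**Figure D4:**
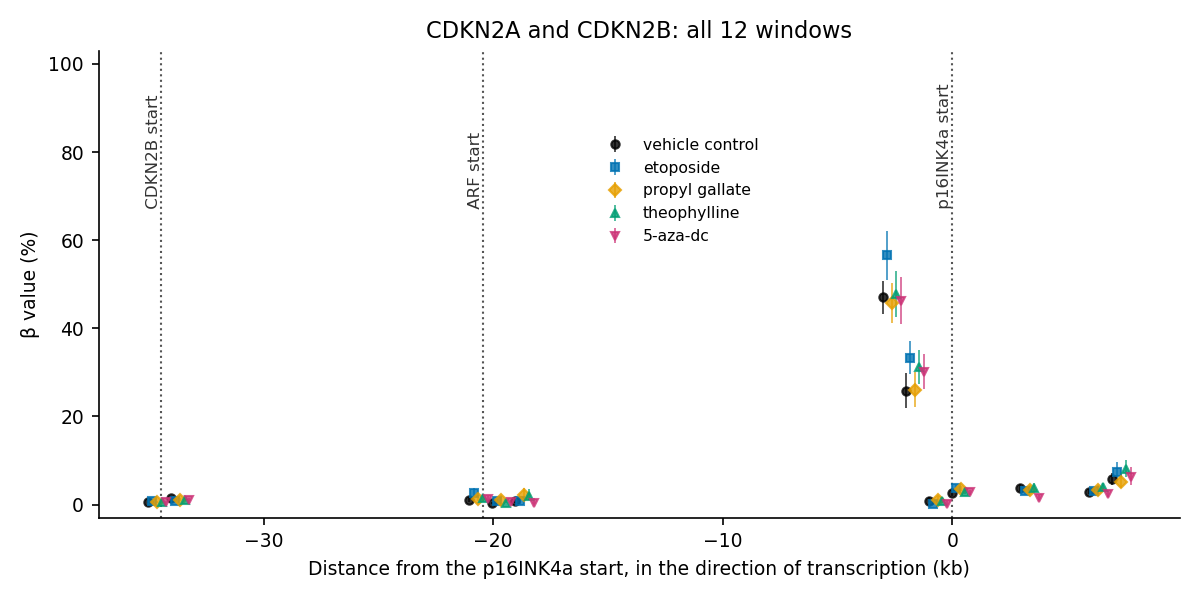
β value in percent (y axis) of the 12 windows of CDKN2A and CDKN2B against the distance of their centre from the p16INK4a start in kb, in the direction of transcription (x axis), for the 5 libraries, which are set slightly side by side; bars are 95% Wilson intervals and dotted lines the 3 starts. Windows at the starts lie below 4%, and the 2 shore windows upstream of the p16INK4a start lie between 25.7 and 56.6%.

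Outside promoters and the RB1 intron island, the mean over 121 windows moved by 0.04 points after etoposide (95% counting interval -0.45 to 0.54), by 0.18 after propyl gallate (-0.28 to 0.65), by 0.96 after theophylline (0.52 to 1.40) and by -0.82 after 5-aza-dc (-1.30 to -0.34). Over all windows the mean moved by 0.51, 0.57, 0.98 and -1.03 points. Without the variable CCND1 window the values were 0.44, 0.25, 1.097 and -0.56 points, so the etoposide value in particular rested on that window.

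The other genes of G1/S control on a list of 20 (CDK2, CDK4, CDK6, CCNE2, CCNA1, CDKN1A, CDKN1B, CDKN1C, CDKN2C, CDKN2D, E2F1 to E2F6, TFDP1, TFDP2, CDC25A and SKP2) had 186 windows in 19 genes, E2F5 having none. Of these, 17 were called higher and 8 lower after etoposide, 11 and 9 after propyl gallate, 17 and 4 after theophylline, and 4 and 19 after 5-aza-dc, or 13.4, 10.8, 11.3 and 12.4% beside the 10.1, 10.3, 11.0 and 14.0% of all windows. The 3 largest called differences were at the genes of 2 INK4 inhibitors. A shore window of CDKN2C, which encodes p18INK4c (chr1:50979001-50980000), read 45.5, 39.0, 17.3, 37.0 and 25.8%, called lower after propyl gallate (exact adjusted p = 0.00222, 69 calls). A CpG-island window of CDKN2D, which encodes p19INK4d (chr19:10569001-10570000), read 23.2, 1.77, 0, 46.4 and 3.37% on 96 to 294 calls: it was higher than the vehicle control after theophylline (exact adjusted p = 5.53e-06) and lower after propyl gallate (1.52e-07), etoposide (1.04e-05) and 5-aza-dc (8.69e-11).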

How the data were processed

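RRBS libraries were prepared with the Zymo-Seq RRBS kit from genomic DNA, 1 per condition; the labels and the methods name different DNA extraction kits. Per the methods and the labels, the authors trimmed reads with Trim Galore 0.5.0, aligned them with Bismark 0.20.0 to hg38, tiled the CpG calls into 1000-base windows in methylKit 1.10.0, applied normalizeCoverage, filtered out windows with too little or too much coverage and kept those present in all 5 libraries. The deposited calls of the vehicle control are unscaled counts. In the 4 chemical libraries the deposited values are a score that matches call counts multiplied by 1.18 (etoposide), 1.09 (propyl gallate), 1.15 (theophylline) or 1.21 (5-aza-dc) and rounded. These factors were estimated here from the deposited coverages. The β value is a fraction that the authors deposited for each window, printed here in percent, and the single-library tables hold the same fractions.

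Scaling up calls makes a test count reads that were not there, so the calls before scaling were recovered by dividing by the estimated factor. Dividing and scaling again by that same factor returned the deposited calls in 100% of windows. The factor was itself chosen to return the most coverages, so this is not an independent check of the recovered calls. Fisher's exact test (two-sided; Python 3.11.15, scipy 1.17.1) was run on them in every window, each chemical against the vehicle control, with Benjamini-Hochberg adjustment over 288391 windows, and was tested on simulated calls. Windows were named when in a promoter CpG island, when in the RB1 intron island or when called; the RBL1 promoter and the uncalled windows at CCND1, CCND2, CCND3 and CDKN2A outside these classes were added after their values were seen; of the list of 20 other genes the 3 largest called differences were named. Promoters took starts from the deposited table and RefSeq, and sequences came from RefSeq (GRCh38.p14). The median window had 398 to 499 calls per library and a Wilson interval 4.83 to 5.60 points wide. PCR duplicates, differences between cultures and differences in which CpGs of a window were read are not covered by any interval. The members and the lists were chosen with earlier results of these data known.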

Additional observations from a re-analysis of the deposited data

How the results depend on the processing

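Of 136 alternatives for 20 results, 111 stayed within 1.5 times the count or within the counting interval of the difference. The counts of calls depended on the threshold, on the depth and on the number of windows assigned. In the order etoposide, propyl gallate, theophylline and 5-aza-dc, the members had 6, 5, 6 and 8 calls among the 86 windows assigned by gene symbol alone (6.98, 5.81, 6.98 and 9.30%), 3, 4, 2 and 5 with a difference of at least 10 points as well, and 2, 0, 1 and 4 with all calls divided by 2, where 1.16, 1.17, 1.26 and 2.71% of all windows were called. The other G1/S genes then had 1, 3, 0 and 8. At an adjusted p under 0.05 the members had 18, 23, 24 and 24 calls (11.5, 14.6, 15.3 and 15.3%, beside 18.3, 18.5, 19.3 and 22.9% of all windows) and the other genes 43, 34, 37 and 40. Pooling all calls gave -0.28 points for the 30 promoter windows after etoposide, beside 0.29 for their unweighted mean. It gave 1.47 for the other windows after theophylline, and windows by symbol alone gave -0.32 for the latter after propyl gallate. The starts of the deposited table alone, the CpG-island promoters alone, the RefSeq span of RB1 and the omission of 1 CCND1 window were chosen after seeing the data. No paired analysis was possible because each condition has 1 library; for the same reason no library could be left out.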

Other observations

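The following windows were picked after their values were seen and are given as values only. Among 233771 windows with at least 100 calls in every library, 19 (0.00813%) had a range over the 5 libraries as wide as that of the CCND1 window at the edge of the promoter island. The CCND3 promoter window at an intermediate level had a range of 1.49 points; among 997 windows with a mean β value of 40 to 60% and at least 1000 calls in every library, the median range was 9.33 points, and 0.100% (the CCND3 window itself) had a range as narrow.

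Of the partners of the E2F factors, TFDP2 had 3 windows far from CpG islands that were lower after 5-aza-dc, from 99.3 to 77.9% (chr3:141945001-141946000, exact adjusted p = 2.52e-12), from 96.7 to 78.8% (chr3:142009001-142010000, 7.39e-19) and from 97.9 to 82.6% (chr3:141987001-141988000, 5.12e-06). These windows read 87.6 to 96.1% after the other chemicals, and each was highest in the vehicle control. At TFDP1 a shore window fell from 98.1 to 81.1% after 5-aza-dc (chr13:113610001-113611000, exact adjusted p = 9.13e-12). It read 92.0, 94.6 and 93.2% after etoposide, propyl gallate and theophylline, and was also highest in the vehicle control. A shelf window of CDKN1A, the gene of p21, fell from 96.3 to 75.8% after propyl gallate (chr6:36684001-36685000, exact adjusted p = 1.67e-07) and read 93.8, 89.9 and 95.1% after etoposide, theophylline and 5-aza-dc. In the other direction, a shore window of E2F2 rose from 67.5 to 89.4% after theophylline (chr1:23528001-23529000, exact adjusted p = 0.00159, 74 calls). This rise of 21.9 points was larger than each fall named in this paragraph. The E2F2 window read 76.0, 74.3 and 72.5% after etoposide, propyl gallate and 5-aza-dc, and was lowest in the vehicle control.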
